A study of Mus musculus with 3 samples.

Results

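Vascular smooth muscle cells of the injured mouse sciatic nerve were taken as 148 of the 4111 cell barcodes with 200 or more genes in the bead-processed library of injured nerve, a share of 3.6% (exact binomial 95% interval 3.05 to 4.22). The smooth muscle barcodes were chosen from their own counts. A barcode had to hold at least 1 unique molecular identifier (UMI, the tag that marks 1 captured mRNA molecule) of Myh11 and at least 10 UMIs of Acta2, Tagln and Myl9 together. It could hold at most 1 UMI summed over the endothelial genes Pecam1, Cdh5, Kdr, Emcn and Tie1, and it could not belong to the table of mesenchymal cells that the authors drew from the same library. The study profiled dissociated sciatic nerves by Drop-seq, which catches single cells in droplets with beads that tag the mRNA of a cell with its barcode. The injured nerve was the distal segment of the sciatic nerve of adult wildtype CD1 mice, 9 days after resection, dissociated with collagenase and trypsin and passed through myelin removal beads. A second library of the distal segment came from adult CD1 and C57BL/6 mice at the same 9 days, with the cells sorted by FACS. The third library was uninjured sciatic nerve of adult wildtype CD1 mice, passed through the beads, of which the authors deposited only the cells they predicted to be mesenchymal. The labels do not give the number of mice pooled in a library, and each condition is 1 library, so differences between pools of barcodes are given with counting error only and no test over animals was possible.

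Vascular smooth muscle cells form the wall of arterioles and venules. They contract when calcium and calmodulin activate myosin light chain kinase, which phosphorylates the regulatory light chain of the smooth muscle myosin whose heavy chain is encoded by Myh11. Nitric oxide and cyclic GMP oppose the contraction, and the calcium store in the sarcoplasmic reticulum is refilled by a pump that phospholamban restrains. Pericytes are the related mural cells of capillaries. They express less of the contractile apparatus and are known by Rgs5, Kcnj8 and Abcc9. Many contractile genes are controlled by serum response factor and its partner myocardin through a promoter element called the CArG box. In the peripheral nerve, arterioles lie mainly in the outer sheath, while the endoneurium among the axons is supplied by capillaries.

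Of the 4111 barcodes, 267 held Myh11, 170 of them also reached 10 UMIs of Acta2, Tagln and Myl9, 20 were then removed by the endothelial limit and 2 by the authors' mesenchymal table. Near the limit, 7 smooth muscle barcodes held 10 to 12 UMIs of Acta2, Tagln and Myl9, and 9 otherwise eligible barcodes held 7 to 9. The number of smooth muscle barcodes with exactly 1 Myh11 UMI was 16, and 28 barcodes without Myh11 met the other criteria. The comparison population of pericyte barcodes was set by the absence of Myh11, at least 3 UMIs of Rgs5, Kcnj8 and Abcc9 together, and the same endothelial and mesenchymal limits. It held 80 barcodes, and 22 of these had 10 or more UMIs of Acta2, Tagln and Myl9. The remaining 3883 barcodes are called all other barcodes here, and the authors' mesenchymal table held 1289 of them. The smooth muscle barcodes summed to 404090 UMIs with a median of 2297.5 per barcode (326 to 9766). The pericyte barcodes summed to 142882 UMIs with a median of 1307 (278 to 18028). The pericyte barcode with 18028 UMIs held 5 UMIs of Rgs5, Kcnj8 and Abcc9 and 0 of Acta2, Tagln and Myl9. The median was 1408 in all other barcodes and 2798 in the mesenchymal barcodes. The whole library held 10859939 UMIs over 4300 deposited barcodes, and 1 barcode sequence was shared with the FACS library, which was none of the smooth muscle barcodes.

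The label was checked against 5 markers: Myh11, Acta2, Tagln, Pln and Kcnmb1. The first 3 are genes of the rule, so their levels describe the choice. Myh11 (chr16:14194535-14291372, minus strand, GENCODE vM21 on GRCm38, the build the submitters' processing notes call mm10) held 1, 7 and 73 UMIs per barcode at its lowest, median and highest. Acta2 (chr19:34241090-34255590, minus strand), the smooth muscle actin, held 2, 20 and 162, and Tagln (chr9:45929619-45936058, minus strand), the actin-binding protein transgelin, held 0, 10 and 126. Pln (chr10:53337667-53345987, plus strand), which encodes phospholamban, and Kcnmb1 (chr11:33963013-33973641, plus strand), which encodes the beta subunit of the large-conductance calcium-activated potassium channel, were not part of the rule. Pln was detected in 33 of 148 smooth muscle barcodes (22.3%) and Kcnmb1 in 17 (11.5%). Among 283 lymphoid barcodes, with a median of 1105 UMIs against 2297.5, neither was detected, which allows a share of up to 1.06%. Of the 5 markers, 3 smooth muscle barcodes held 2, 105 held 3, 30 held 4 and 10 held all 5.

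**Figure D1:**
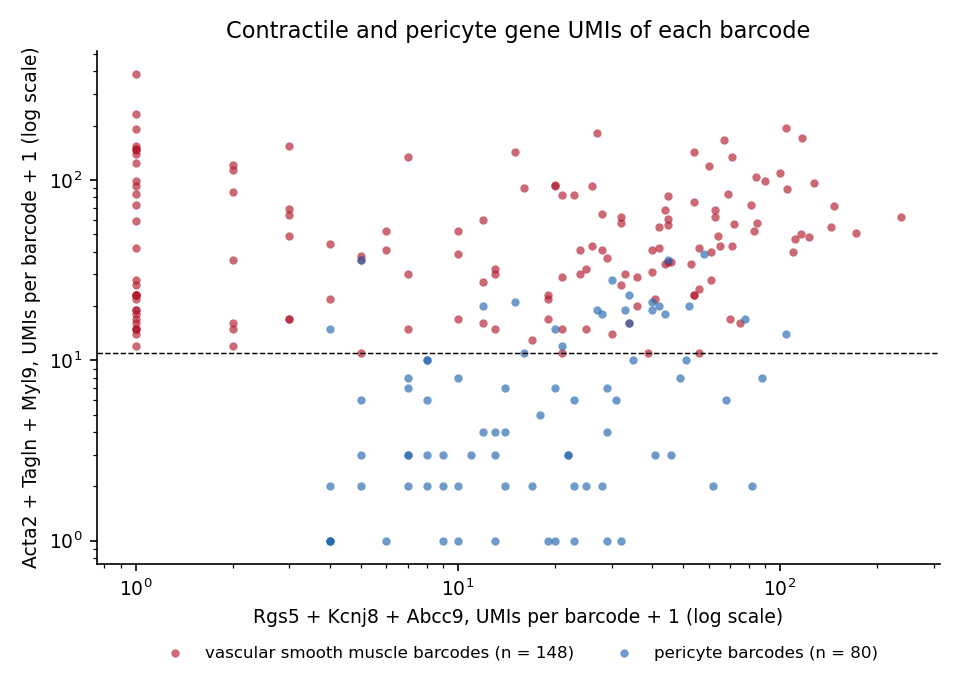
Summed UMIs of Acta2, Tagln and Myl9 (vertical axis) against summed UMIs of Rgs5, Kcnj8 and Abcc9 (horizontal axis) in each of the 148 smooth muscle and 80 pericyte barcodes, both as UMIs + 1 on log axes; the dashed line is the minimum of 10. The smooth muscle barcodes spread from 0 to 237 pericyte-gene UMIs, and 32 of them lie at 0.

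The plot of summed UMIs per barcode shows that the smooth muscle barcodes differed widely in pericyte genes. The sum of Acta2, Tagln and Myl9 had a median of 41 UMIs (10 to 385) in smooth muscle barcodes and 3.5 (0 to 38) in pericyte barcodes. The sum of Rgs5, Kcnj8 and Abcc9 had a median of 20 (0 to 237) in smooth muscle barcodes and 18.5 (3 to 103) in pericyte barcodes. The range of the pericyte barcodes thus lay within that of the smooth muscle barcodes for the second sum. Pooled over barcodes, Rgs5 (chr1:169655501-169695813, plus strand), a regulator of G protein signalling, was at 11896 CPM (UMIs of a gene per 1000000 UMIs of the pool) in smooth muscle and 12297 CPM in pericyte barcodes. Kcnj8 and Abcc9, which form an ATP-sensitive potassium channel, were at 104 and 176 CPM in smooth muscle barcodes and at 476 and 574 CPM in pericyte barcodes. These are genes of the rule and are given as a description.

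The CArG box was looked for in the 250 bases upstream of RefSeq starts (build GRCm38.p6), since several of the genes described next have one there and its letters show what the element looks like. The box has 10 letters: CC, then 6 letters that are each A or T, then GG, which reads as the same kind of element on both strands. A CArG-like box has the same ends and 1 G or C among the inner 6. A window was found for 43 of 53 genes looked up, and none was at hand for Myh11 and Tagln. The capitals mark the boxes. Distances are to the RefSeq start. Where a window ran into a GENCODE exon of the same strand, only the part outside the exon is shown. The boxes of Acta2 and Rergl lie upstream of the RefSeq start but within such an exon, since GENCODE has a start further upstream, and only 30 bases around each are given. The windows of Filip1 and Myom1 belong to starts inside the GENCODE genes (chr9:79815051-80012851 and chr17:71002633-71126856). The Filip1 window at the upstream end of that gene (chr9:80012852-80013101) holds no box of either kind. The stretches are Acta2 at chr19:34255438-34255467 and chr19:34255388-34255417 (minus strand), Myl9 at chr2:156775214-156775419 (plus), Ldb3 at chr14:34588683-34588931 (minus), Filip1 at chr9:79977883-79978132 (minus), Myom1 at chr17:71019307-71019520 (plus) and Rergl at chr6:139501939-139501968 (minus), all 5′ to 3′.
Acta2, CArG-like box 84 bases before the start: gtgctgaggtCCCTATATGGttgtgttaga
Acta2, CArG-like box 34 bases before the start: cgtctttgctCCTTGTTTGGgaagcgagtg
Myl9, CArG box at 161 and CArG-like box at 99 bases: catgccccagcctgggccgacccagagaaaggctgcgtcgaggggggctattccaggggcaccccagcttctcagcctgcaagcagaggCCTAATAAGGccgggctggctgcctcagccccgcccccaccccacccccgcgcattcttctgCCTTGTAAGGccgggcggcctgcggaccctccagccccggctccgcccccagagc
Ldb3, CArG box at 35 bases: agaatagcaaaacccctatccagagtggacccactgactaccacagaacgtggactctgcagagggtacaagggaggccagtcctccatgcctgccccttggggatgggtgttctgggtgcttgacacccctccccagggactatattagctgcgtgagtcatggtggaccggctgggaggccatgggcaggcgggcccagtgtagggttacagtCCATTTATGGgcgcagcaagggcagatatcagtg
Filip1, CArG box at 115 bases: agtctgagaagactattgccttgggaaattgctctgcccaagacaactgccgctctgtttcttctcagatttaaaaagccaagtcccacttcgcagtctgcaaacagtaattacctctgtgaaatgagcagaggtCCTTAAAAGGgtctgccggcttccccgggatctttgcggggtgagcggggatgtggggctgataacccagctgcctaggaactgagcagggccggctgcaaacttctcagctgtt
Myom1, CArG box at 99 bases: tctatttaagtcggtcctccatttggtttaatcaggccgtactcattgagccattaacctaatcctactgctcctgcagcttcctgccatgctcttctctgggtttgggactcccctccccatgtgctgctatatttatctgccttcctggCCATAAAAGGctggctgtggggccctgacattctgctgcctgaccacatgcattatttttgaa
Rergl, CArG box at 49 bases: acaaggacagCCATAAAAGGcactttcaaa

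Among all 27025 genes with such a window, 439 held a CArG box (1.62%) and 9.78% held either kind. Of the 30 genes in the contractile list, 25 had a window, 4 of these held a CArG box and 7 held either kind. Among genes higher in smooth muscle than in all other barcodes (the size rule is given below), 20 of 442 with a window held a CArG box (4.52%), beside 1.95% of the genes compared. Among genes higher than in pericyte barcodes the count was 9 of 235 (3.83%), beside 1.97%. A match describes these letters only, and a window without one says nothing about binding.

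The genes of the contractile apparatus were described against the pericyte barcodes first, as the nearest cell population. A gene was called higher or lower where 3 conditions held: 50 CPM or more in either pool, a difference of 2-fold or more, and an exact 95% counting interval of the ratio without 1. Of 4562 genes compared, 312 were higher in smooth muscle barcodes (6.84%) and 436 lower (9.56%), and the median log2 ratio was -0.11. When the barcode with most UMIs of a gene was left out of each pool, 413 genes were higher and 183 lower. Pool totals were kept in that setting, and the smaller pericyte pool tends to lose the larger share of a gene's counts. This by itself tends to raise the ratios, so the setting cannot show whether the balance of the calls depends on single barcodes. The 12 genes of the rules were left out. Of 26 genes of the contractile list compared, 22 were higher, none was lower, and the median log2 ratio was 1.65. The list was chosen with earlier results of these data known. It also counts Mustn1, Sncg and Susd5, for which no part in the contractile apparatus is shown here. The calls concern 1 library, they come from the same cells that the rule picked out by 4 other genes of this apparatus, and they are descriptions of these pools.

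Cnn1 (chr9:22099216-22109630, plus strand), the actin-binding protein calponin, was detected in 47 of 148 smooth muscle barcodes and in 2 of 80 pericyte barcodes. Its pooled level was 327 against 14 CPM, a log2 ratio of 4.54 (2.66 to 7.61). Actg2 (chr6:83512905-83536265, minus strand), the enteric smooth muscle actin, was detected in 52 barcodes with up to 28 UMIs, at 725 against 42.0 CPM (log2 4.11, 2.97 to 5.57). Most smooth muscle barcodes thus held no Actg2, while 108 held Lmod1. Lmod1 (chr1:135324807-135368065, plus strand), which encodes leiomodin, a nucleator of actin filaments, held 0, 2 and 24 UMIs at its lowest, median and highest. It was at 1091 against 175 CPM (log2 2.64, 2.06 to 3.28), and only 12 of 80 pericyte barcodes held it.

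The broadly expressed genes of the apparatus were seen in nearly every smooth muscle barcode. Tpm1, the tropomyosin of the thin filament, was detected in all 148 with a median of 24 UMIs (1 to 142) and was at 10376 against 3604 CPM (log2 1.53, 1.39 to 1.66). Tpm2, the second tropomyosin, was detected in 144 with a median of 9 (0 to 126) and had a log2 ratio of 2.23 (1.98 to 2.49). Mylk, the myosin light chain kinase, was detected in 143 with a median of 7 (0 to 51), at 3279 against 1113 CPM (log2 1.56, 1.32 to 1.81). These levels overlapped between single barcodes, since 73 of 80 pericyte barcodes held Tpm1 and 52 held Mylk.

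Regulators of the light chain were on the same side. Ppp1r14a, an inhibitor of myosin phosphatase, was at 458 against 133 CPM (log2 1.78), and Ppp1r12b, a targeting subunit of that phosphatase, at 151 against 21 CPM (log2 2.85, 1.23 to 5.16, from 3 pericyte UMIs). Genes of dense bodies and Z-disc-like attachments were Pdlim3 at 188 against 14 CPM (log2 3.75, 1.85 to 6.82) and Ldb3 at 76.7 against 7.0 CPM (log2 3.45, 0.87 to 8.80, from 1 pericyte UMI). Smtn, the contractile-cell protein smoothelin, was at 223 against 42.0 CPM (log2 2.41), Mustn1 at 1111 against 273 CPM (log2 2.03) and Sncg at 653 against 154 CPM (log2 2.09). Susd5 was at 94.0 CPM and not detected in the pericyte pool, where 0 UMIs allow up to 21 CPM.

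The 4 contractile genes that did not meet the rule were expressed in both mural pools. Cald1, the thin-filament protein caldesmon, was at 6481 against 4136 CPM (log2 0.65). Des, the intermediate filament desmin, was at 626 against 448 CPM (log2 0.48), Vcl at 428 against 224 CPM (log2 0.93) and Synpo2 at 191 against 119 CPM (log2 0.68, -0.09 to 1.53). Under other choices of scaling, barcodes and weights, the number of contractile genes called higher was 16 when every barcode was thinned to 1000 UMIs and 20 to 25 otherwise.

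**Figure D2:**
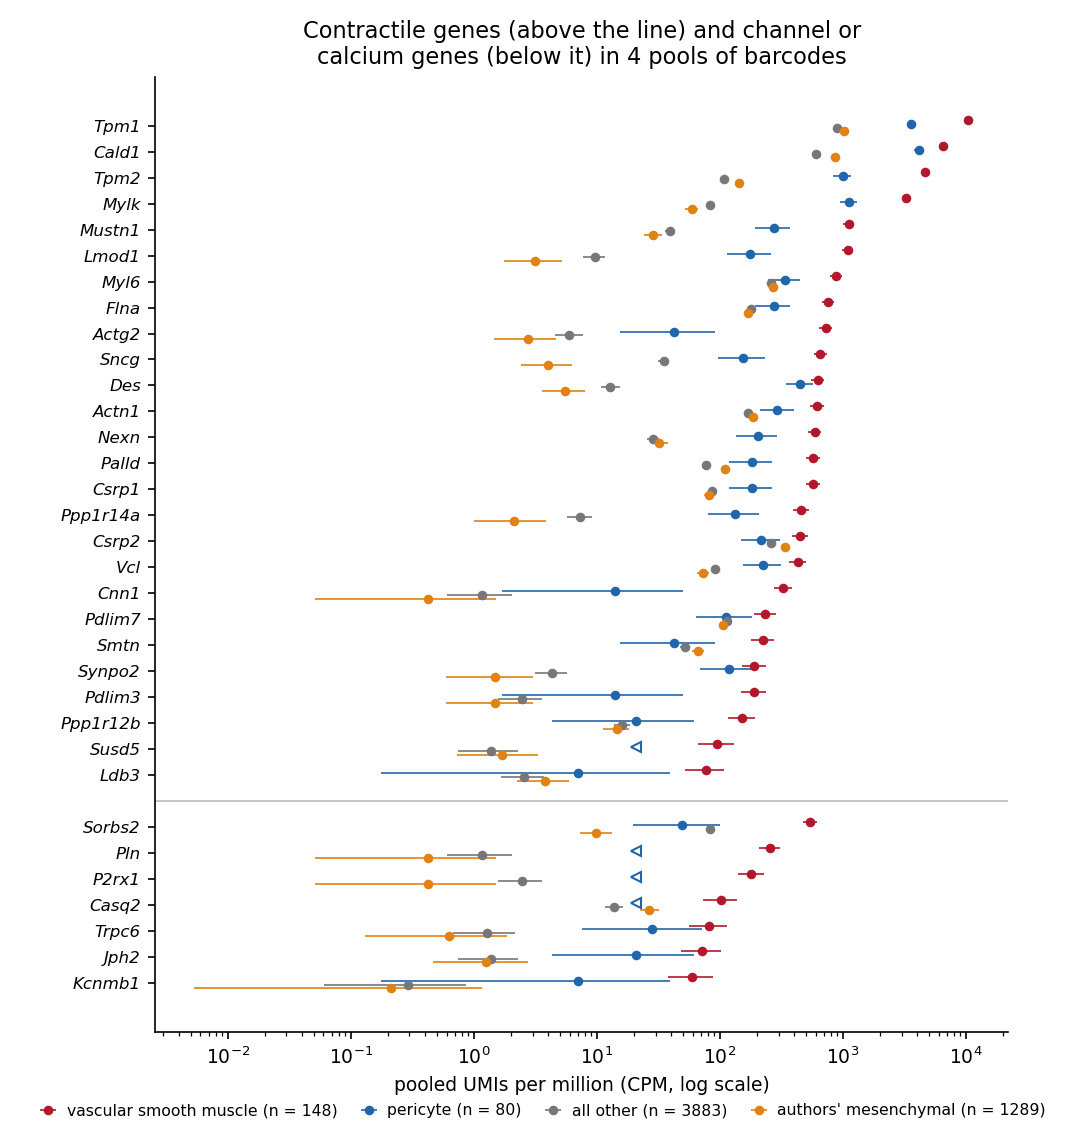
Pooled level, in CPM on a log axis, of 26 contractile genes (above the line) and 7 channel or calcium genes (below it) in smooth muscle, pericyte, all other and mesenchymal barcodes; bars are exact Poisson 95% intervals and open triangles mark the limit that 0 UMIs allow. Smooth muscle lies highest for each of the genes drawn, with Pln at 255 CPM and at 0 UMIs in the pericyte pool.

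The channels and calcium-handling proteins set the membrane potential and the calcium store of a contractile cell. Of 15 genes of this list compared, 7 were higher in smooth muscle than in pericyte barcodes and none was lower. Pln was at 255 CPM with 0 UMIs in the pericyte pool, at least 12.1-fold higher against the 3 counts that a pool at 0 allows. P2rx1, the ATP-gated cation channel of sympathetic transmission, was found in 28 smooth muscle barcodes at 181 CPM and in no pericyte barcode, at least 8.60-fold higher. Casq2, the calcium-binding protein calsequestrin of the store, was at 101 CPM and at least 4.83-fold higher. Pln, P2rx1 and Casq2 were each at 0 UMIs in the 80 pericyte barcodes, and 0 of 80 allows a share of up to 3.75%.

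Sorbs2, an adaptor protein of the actin cytoskeleton, was detected in 65 smooth muscle barcodes at 542 against 49.0 CPM (log2 3.47, 2.40 to 4.80). Trpc6, a receptor-operated cation channel, was at 81.7 against 28.0 CPM (log2 1.54, 0.05 to 3.50). Jph2, the junctophilin that tethers the store to the plasma membrane, was at 71.8 against 21 CPM (log2 1.77, 0.08 to 4.13), and Kcnmb1 was at 59.4 against 7.0 CPM (log2 3.09, 0.47 to 8.45). The lower bounds for Trpc6, Jph2 and Kcnmb1 were close to equality. Not called were Atp2a2, the calcium pump of the store, at 398 against 210 CPM (log2 0.92), the chloride channel Ano1 at 220 against 147 CPM and the potassium channel Kcnk3 at 158 against 140 CPM. The list had 3 genes called higher after thinning to 1000 UMIs, for which 132 smooth muscle and 52 pericyte barcodes were deep enough.

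Receptors and intracellular partners of vasoactive signals were divided. Of 19 compared, 3 were higher and 3 lower. Among regulators of G protein signalling and their partners, Rgs4 was at 683 against 196 CPM (log2 1.80, 1.24 to 2.42), Rgs7bp at 168 against 35 CPM (log2 2.27) and Rgs2 at 280 against 112 CPM (log2 1.32), while Rgs16 was lower at 354 against 903 CPM (log2 -1.35, -1.71 to -1.0). Agtr1a, the angiotensin II receptor, was lower at 24.8 against 126 CPM (log2 -2.35, -3.63 to -1.16), with 8 of 148 smooth muscle and 15 of 80 pericyte barcodes positive. Adra2a, an adrenergic receptor, was lower at 89.1 against 273 CPM (log2 -1.62). The soluble guanylate cyclase subunits, which bind nitric oxide, were close in both pools: Gucy1a3 was at 797 and 903 CPM and Gucy1b3 at 480 and 448 CPM. Npy1r, a receptor of the sympathetic transmitter neuropeptide Y, was at 396 and 224 CPM (log2 0.82), and the endothelin receptor Ednra at 173 and 231 CPM, neither called.

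Genes known from pericytes were lower or close. Of 16 compared, 5 were lower and 1 higher. P2ry14 (log2 -2.50), Art3 (log2 -1.39), Steap4 (log2 -1.32), Vtn (148 against 364 CPM, log2 -1.29) and the transcription factor Ebf1 (391 against 875 CPM, log2 -1.16) were lower. Cspg4, which encodes the NG2 proteoglycan, was higher at 119 against 28.0 CPM (log2 2.09, 0.64 to 4.02). Pdgfrb, the receptor through which endothelial cells recruit mural cells, was at 327 against 546 CPM (log2 -0.74), Notch3 at 552 against 525 CPM and Higd1b at 290 against 336 CPM, none of them called.

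**Figure D3:**
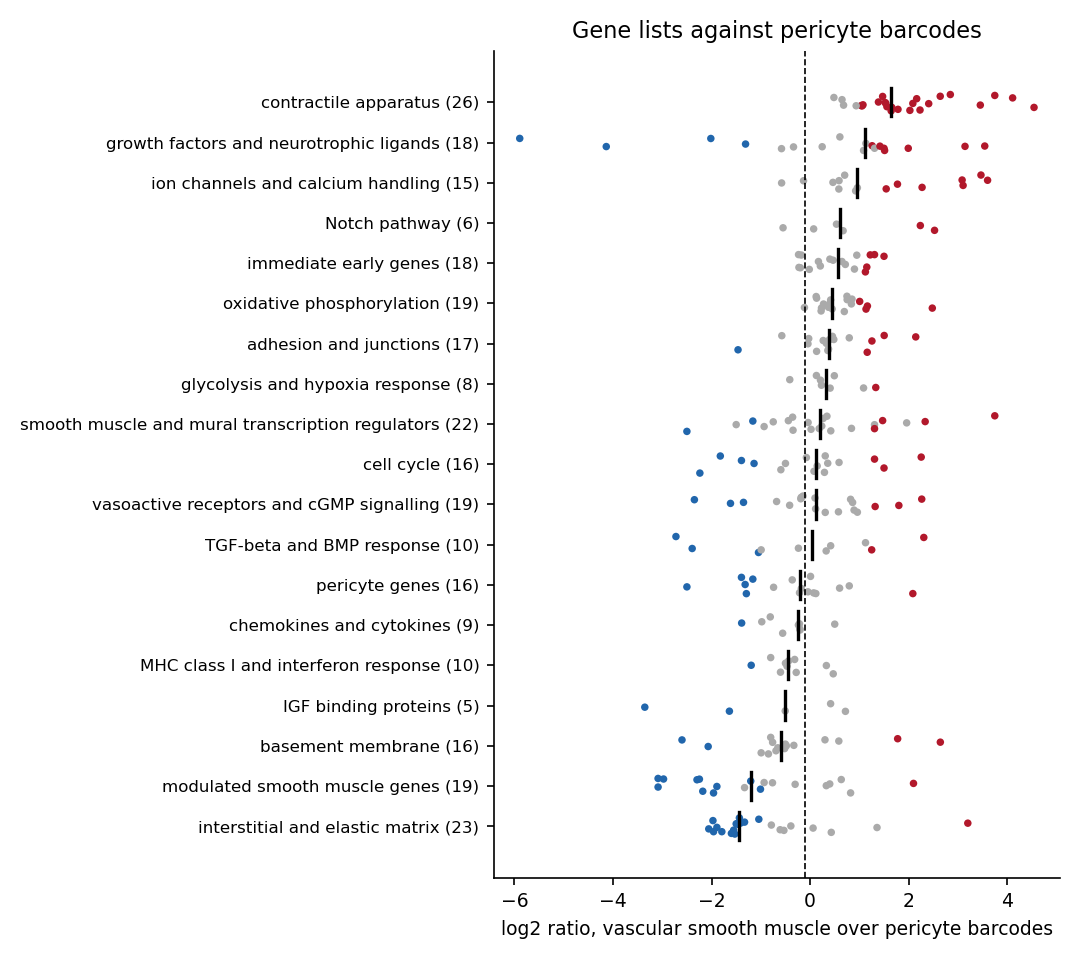
The log2 ratio of smooth muscle over pericyte barcodes for each compared gene of 19 gene lists; the number compared is in brackets, black bars are list medians, red points were higher, blue points lower, and the dashed line is the median of all genes. The contractile list has its median at 1.65, against -0.11 for all genes, and the interstitial matrix list holds 15 lower genes of 23. The lists were chosen with earlier results of these data known.

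Regulators of transcription gave 4 higher and 2 lower genes of 22. Id1, a target of bone morphogenetic protein signals, was at 94.0 against 7.0 CPM (log2 3.75, 1.18 to 9.09, from 1 pericyte UMI), and Klf2, a factor known from flow responses, was at 389 against 77.0 CPM (log2 2.34, 1.46 to 3.37). Mef2c was at 505 against 182 CPM (log2 1.47) and Nr4a1 at 676 against 273 CPM (log2 1.31). Meis1 and Ebf1 were lower. With TMM scaling, 7 genes of the list were higher and 1 lower. Myocd, which encodes myocardin, was found in 16 smooth muscle barcodes and 1 pericyte barcode at 49.5 and 7.0 CPM, under the floor of 50. Klf2 was also at 184 CPM in lymphoid and 307 CPM in all other barcodes, so its level was not restricted to mural cells.

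In the Notch pathway, which specifies arterial mural cells, 2 of 6 genes were higher and none lower. Nrarp, a feedback inhibitor of Notch, was at 99.0 CPM and not detected in the pericyte pool (at least 4.71-fold higher). Nrip2 was at 282 against 49.0 CPM (log2 2.53, 1.44 to 3.87). The receptor Notch3 itself was at nearly the same level in the pools, as given above.

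Growth factors and ligands gave 7 higher and 4 lower genes of 18. Among the higher ones, Fgf1 was at 81.7 against 7.0 CPM (log2 3.54, 0.97 to 8.89, from 1 pericyte UMI) and the netrin Ntn4 at 124 against 14 CPM (log2 3.14, 1.22 to 6.23). Tgfb3 was at 299 against 105 CPM (log2 1.51), Tgfb2 at 168 against 63.0 CPM (log2 1.42) and Bmp2 at 198 against 70.0 CPM (log2 1.5). Pdgfa, a ligand for mesenchymal cells, was detected in 89 smooth muscle barcodes at 436 against 182 CPM (log2 1.26), and the guidance molecule Slit3 in 31 at 111 against 28.0 CPM (log2 1.99). After thinning to 1000 UMIs, 1 gene of the list was higher and 2 lower.

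The lower ligands rested on few pericyte barcodes. Ptn, the neurite growth factor pleiotrophin, was at 7.42 against 441 CPM (log2 -5.89, -8.21 to -4.28) but was found in 2 smooth muscle and 4 pericyte barcodes, 1 of which held 59 UMIs. Igf1 was at 56.9 against 1001 CPM (log2 -4.14, -4.84 to -3.49), found in 18 smooth muscle and 17 pericyte barcodes with up to 125 UMIs in a pericyte barcode. Without the 6 barcodes of each pool that held 10 or more UMIs of mesenchymal markers, Igf1 was at 57.0 against 153 CPM (log2 -1.43, -2.44 to -0.39) and still lower, while Ptn had 3 and 2 UMIs and was not called. Mdk and Igf2 were lower by the rule at log2 -2.01 and -1.31. Without the same barcodes Mdk was at log2 -1.52 and still lower. Igf2 was then at 203 against 163 CPM (log2 0.32) and not called. Igfbp3, a carrier of insulin-like growth factors, was at 32.2 against 329 CPM (log2 -3.35) and at log2 -3.31 without those barcodes.

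Adhesion and caveolar genes gave 4 higher and 1 lower of 17. The integrin Itga8 was at 124 against 28.0 CPM (log2 2.14, 0.70 to 4.07), and the caveolin Cav1, a coat protein of the membrane pits that are dense in smooth muscle, was detected in 126 barcodes at 1136 against 476 CPM (log2 1.25, 0.89 to 1.65). The cadherin Cdh2, which joins pericytes to endothelium, was lower at 96.5 against 266 CPM (log2 -1.46). In the basement membrane list, 2 of 16 genes were higher and 2 lower. The laminin chains Lama5 (131 against 21 CPM, log2 2.64) and Lamb2 (312 against 91.0 CPM, log2 1.78) were higher, and Lamb1 (71.8 against 301 CPM, log2 -2.07) and the collagen Col15a1 (34.7 against 210 CPM, log2 -2.60) were lower. The 2 laminin beta chains thus stood on opposite sides of the pericyte pool. Sparcl1, a matricellular protein, was detected in 145 smooth muscle barcodes with a median of 16 UMIs (0 to 195), at 9132 against 6096 CPM (log2 0.58, not called).

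Interstitial and elastic matrix genes were the list with the most lower genes, 15 of 23, with 1 higher. The fibrillar collagens Col1a1 (775 against 3038 CPM, log2 -1.97), Col1a2 (1952 against 5907 CPM, log2 -1.60) and Col3a1 (3004 against 8259 CPM, log2 -1.46) were lower, as were the proteoglycan Dcn (309 against 1148 CPM, log2 -1.89) and fibronectin, Fn1 (351 against 931 CPM, log2 -1.41). Eln, the elastin of arterial walls, was higher at 64.3 against 7.0 CPM (log2 3.20, 0.59 to 8.56), from 19 smooth muscle barcodes and 1 pericyte barcode. Col3a1 was detected in 121 of 148 smooth muscle and 76 of 80 pericyte barcodes, so the pools differed in amount more than in presence.

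Mesenchymal markers were also lower in the smooth muscle pool, but the 2 lists overlap, since Col1a1, Lum and Dcn are in both. The list of 8 mesenchymal markers summed to 1227 CPM in smooth muscle, 5095 CPM in pericyte and 28836 CPM in mesenchymal barcodes, and of the 8 only Gdf10 was at 0 in smooth muscle. Per barcode, the sum had a median of 2 and a highest value of 104 UMIs in smooth muscle, and a median of 1 and a highest value of 502 UMIs in pericyte barcodes. In each pool 6 barcodes held 10 or more. Without these, 142 smooth muscle barcodes with 368716 of 404090 UMIs remained, and 74 pericyte barcodes with 104469 of 142882 UMIs. Pericyte levels in this report include the removed barcodes unless stated. Of the matrix genes, 5 were lower and 3 higher without them. The lower ones were Col3a1 (log2 -1.06), Col5a2 (log2 -1.77), Col5a3 (log2 -1.69), Col6a1 (log2 -1.15) and Col6a2 (log2 -1.31). The higher ones were Eln (log2 2.70), Emilin1 (log2 2.04) and the crosslinking enzyme Lox (log2 2.77). Col1a1 was then at 507 against 699 CPM (log2 -0.46) and Dcn at 157 against 287 CPM (log2 -0.87), both uncalled. Both belong to the sum that chose the removed barcodes, so a fall in their levels is built into that choice. When instead the barcode with most UMIs was left out of each pool gene by gene, 4 matrix genes were lower. Pool totals were again kept, which tends to raise the ratios.

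**Figure D4:**
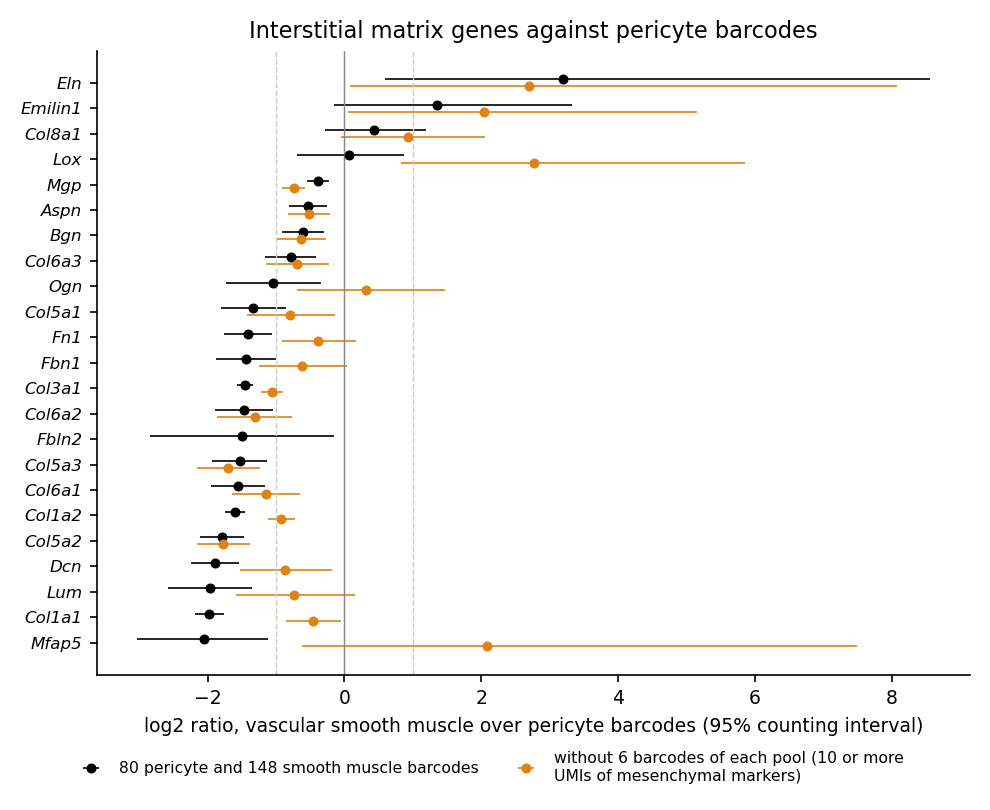
The log2 ratio of smooth muscle over pericyte barcodes, with exact 95% counting intervals, for 23 interstitial and elastic matrix genes with all barcodes (black) and without the 6 barcodes of each pool that held 10 or more mesenchymal marker UMIs (orange); dashed lines mark 2-fold. Col1a1 shifts from -1.97 to -0.46, while Col5a2 stays near -1.77. Col1a1, Lum and Dcn are themselves among the markers by which barcodes were left out.

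The list of genes known from modulated smooth muscle, the dedifferentiated state described in diseased arteries, had 10 lower genes and 1 higher of 19. Without the same barcodes it had 3 lower and 3 higher, but Lum and Dcn of this list are also among the markers that chose those barcodes. Immediate early genes, which tissue dissociation also induces, gave 5 higher and none lower of 18, and Fos was at 4437 against 3359 CPM (log2 0.40). In energy metabolism, 4 of 19 oxidative phosphorylation genes were higher and none lower, among them Ckb, the brain-type creatine kinase, at 351 against 63.0 CPM (log2 2.48, 1.51 to 3.64). The TGF-beta list gave 2 higher and 3 lower genes of 10, and Ctgf was at 549 against 231 CPM (log2 1.25). After thinning, this list had 1 lower and no higher gene. Without the mesenchymal-marker barcodes it had 2 higher and none lower. Ctgf was not called in either setting (log2 0.52 and 0.96). Ccl2, the monocyte-attracting chemokine, was lower at 134 against 350 CPM (log2 -1.39). The remaining lists were IGF binding proteins (2 lower of 5), chemokines (1 lower of 9), cell cycle (3 higher and 4 lower of 16), glycolysis (1 higher of 8) and MHC class I genes (1 lower of 10). The cell cycle list had no call after thinning, and 7 higher and none lower without the mesenchymal-marker barcodes. Barcodes with 3 or more UMIs of 12 mitotic genes were 15 of 148 smooth muscle (10.1%), 7 of 80 pericyte (8.75%) and 314 of 3883 all other barcodes (8.09%). Those 15 had a median depth of 4874 UMIs.

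The 12 genes furthest above the pericyte pool mixed cytoskeletal and other functions. Synm, an intermediate filament protein that binds desmin, was found in 45 smooth muscle barcodes at 210 against 7.0 CPM (log2 4.91, 2.39 to 10.23). Myom1, a myomesin known from the muscle sarcomere, was found in 52 barcodes with at most 3 UMIs each at 193 CPM (log2 4.79, 2.26 to 10.11). Cdkn1a, the cell cycle inhibitor p21, was at 213 CPM in 26 barcodes (log2 4.93, 2.41 to 10.25). Each of these 3 rests on 1 pericyte UMI. Crispld2 had more pericyte counts and was at 802 against 42.0 CPM (log2 4.25, 3.12 to 5.71), and the calmodulin-binding protein Pcp4l1 was at 408 against 21 CPM (log2 4.28, 2.71 to 6.57). The others were Filip1, Cnn1, Fam81a, Entpd1, Actg2, Kank1 and Il1b, and Il1b came from 7 smooth muscle barcodes, 1 of which held 19 UMIs.

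At the other end, Sfrp2, a secreted Wnt inhibitor, was at 7.42 against 623 CPM, from 2 of 80 pericyte barcodes, 1 of which held 88 UMIs. Without that barcode, and without the highest smooth muscle barcode, its log2 ratio moved from -6.39 to -0.50, with pool totals kept. Angptl1, Clmp and Penk were each found in 1 pericyte barcode, Ociad2 and Sfrp1 in 2 and Flrt2 in 3. Nostrin, found in 9 pericyte and 2 smooth muscle barcodes with at most 2 UMIs each, was at 4.95 against 70.0 CPM (log2 -3.82, -7.05 to -1.59). Nsg1 and Iars were each found in 6 pericyte barcodes. Including Ptn, 8 of these 12 genes were found in 1 to 4 pericyte barcodes.

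Against all other barcodes, 606 of 4757 genes compared were higher (12.7%) and 737 lower (15.5%). The contractile list had 25 higher of 26 and none lower, with a median log2 ratio of 4.29 against -0.02 for all genes. The exception was Csrp2, a LIM-domain protein, at 445 against 260 CPM (log2 0.78). The highest ratio belonged to Rergl, a Ras-like GTPase found in 21 smooth muscle barcodes at 79.2 CPM and in all other barcodes at 0.20 CPM, which rests on 2 UMIs. Cnn1 was 279-fold, Pln 218-fold and Kcnmb1 203-fold higher than in all other barcodes. Map3k7cl was found in 70 smooth muscle barcodes at 418 against 1.95 CPM (214-fold). Actg2 and Lmod1 were 122-fold and 114-fold higher, Sh3bgr 182-fold, Rgs7bp 90.7-fold, Cap2 90.1-fold, Hrc, a calcium-store protein, 82.7-fold and Nrip2 80.2-fold.

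Against all other barcodes, 16 of 18 vasoactive genes were higher and none lower. Of the channel and calcium-handling list, which also holds Sorbs2, 14 of 15 were higher and none lower. Of 7 Notch genes 6 were higher and 1 lower, and of 19 adhesion genes 13 were higher and 2 lower. Growth factors (10 higher and 7 lower of 22) and basement membrane genes (6 higher and 5 lower of 16) were divided, and the TGF-beta list had 8 lower and 1 higher of 13. Gucy1a3 was at 20.5 CPM, Npy1r at 9.28 CPM and Notch3 at 19.0 CPM in all other barcodes. The interstitial matrix list had 19 lower and 2 higher genes of 27, the higher ones being Eln (log2 2.07) and Mgp, the inhibitor of vascular calcification (2499 against 1231 CPM, log2 1.02).

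Against the authors' mesenchymal barcodes, the population the series is about, 795 of 4560 genes were higher (17.4%) and 694 lower (15.2%), and the median log2 ratio was 0.16. The contractile list again had 25 of 26 higher. Cnn1 was 775-fold, Pln 605-fold, Myom1 458-fold and P2rx1 429-fold higher, and all 4 had 2 UMIs in 1289 mesenchymal barcodes. Lmod1 was at 3.16 CPM, Acta2 at 62.6 CPM and Myh11 at 5.90 CPM there. Of 27 matrix genes, 21 were lower and Eln was higher, with Col1a1 at 8607 CPM and Dcn at 13741 CPM in mesenchymal barcodes. With TMM scaling the split between higher and lower genes moved from 53.4% to 43.5% higher in this comparison, and from 41.7% to 59.6% against the pericyte pool, where TMM shifted all log2 ratios by 0.17.

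A pair of olfactory receptor genes was among those most above the mesenchymal pool. Olfr558 was found in 70 of 148 smooth muscle barcodes (47.3%) with up to 12 UMIs, at 473 CPM against 182 CPM in pericyte, 6.05 CPM in all other and 0.63 CPM in mesenchymal barcodes (748-fold). Olfr78, known as a chemosensory receptor in vessel walls, was found in 44 barcodes (29.7%) at 198 against 21, 3.32 and 0.63 CPM (313-fold). In lymphoid barcodes, with a median of 1105 UMIs against 2297.5, the shares with a UMI were 0.353% and 0.707%.

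The smooth muscle barcodes were then described by their own pericyte genes. Of the 148, 103 held 3 or more UMIs of Rgs5, Kcnj8 and Abcc9, 13 held 1 or 2 and 32 held none. Most UMIs of this sum were Rgs5, whose pooled level was close in smooth muscle and pericyte barcodes, as given above. The split therefore mainly follows Rgs5, and with or without pericyte genes is used here only as a short name for this sum. The 103 were deeper, with a median of 2637 UMIs against 1375, so counts of barcodes are also given after thinning to 1000 UMIs (99 and 22 barcodes). Of 4676 genes compared, 374 were higher in the 103 (8.0%) and 413 lower (8.83%). The median of their log2 ratios was 0.03. Without the top barcode of each gene the counts were 528 higher and 226 lower. Pool totals were kept there too, and the 32 barcodes tend to lose the larger share of a gene's counts. The shift towards higher genes in that setting therefore cannot be read as a trait of the cells. After thinning, the counts were 116 higher and 240 lower. The groups were formed from these counts, and no test applies.

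The 32 barcodes without pericyte genes had the higher levels of several contractile and calcium genes. Pln was detected in 19 of the 32 (up to 10 UMIs) and in 6 of the 103 (up to 5), at 892 against 52.7 CPM. After thinning, 63.6% and 4.04% of barcodes held it. Sorbs2 was found in 25 of 32 and 32 of 103, at 1907 against 181 CPM (77.3% and 14.1% after thinning). Lmod1 was at 2141 against 752 CPM, Cnn1 at 727 against 198 CPM, Kcnmb1 at 178 against 23.1 CPM, P2rx1 at 357 against 95.6 CPM and Tpm2 at 9070 against 3462 CPM. For these genes only pooled levels are given, and pooled levels lean on deep barcodes. Single barcodes gave 9766, 7025, 6583 and 5135 of the 72876 UMIs of the 32. The barcode with 7025 UMIs held 385 UMIs of Acta2, Tagln and Myl9. Myh11, a gene of the rule, was at 8453 against 2664 CPM. Of 26 contractile genes, 14 were higher in the 32 barcodes and 1, Actg2, was higher in the 103 (844 against 398 CPM, log2 1.08). Mylk (3993 and 3119 CPM), Tpm1 (10113 and 10582 CPM) and Cald1 (7273 and 6306 CPM) were close.

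Outside contraction, Klf2 was at 1304 against 135 CPM in the 32 and the 103, the Notch target Hes1 at 1098 against 297 CPM, Rgs4 at 1454 against 425 CPM, Sparcl1 at 16260 against 6686 CPM and the metallothionein Mt1 at 3787 against 475 CPM. Sh3bgr was at 425 against 13.2 CPM. The 32 also had higher levels of immediate early genes, 10 of 18, with Fos at 8535 against 3336 CPM and Nr4a1 at 1482 against 491 CPM. The part of dissociation in this difference was not tested.

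The 103 barcodes with pericyte genes had higher interstitial matrix, 14 of 21 genes with none lower. Col3a1 was at 3834 against 439 CPM (84.8% and 36.4% of barcodes after thinning) and Col1a1 at 939 against 192 CPM. Of 15 basement membrane genes, 7 were higher, among them Col4a1 at 2334 against 659 CPM, and 3 were lower, Lama5, Lamb2 and Sparcl1. The surface protein Thy1 was found in 63 of 103 and 1 of 32 barcodes at 560 against 13.7 CPM, and at 1008 CPM in the pericyte pool. Among other genes, Rgs16 was at 468 against 13.7 CPM, Meg3 at 1263 against 68.6 CPM and Higd1b at 369 against 54.9 CPM. The chemokine Ccl11 was found in 39 of the 103 and in none of the 32 (369 and 0 CPM), and Ccl2 was at 175 against 13.7 CPM. The class I gene H2-K1 was at 603 against 165 CPM. Notch3 differed little, at 567 and 521 CPM, as did Des at 593 and 672 CPM.

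**Figure D5:**
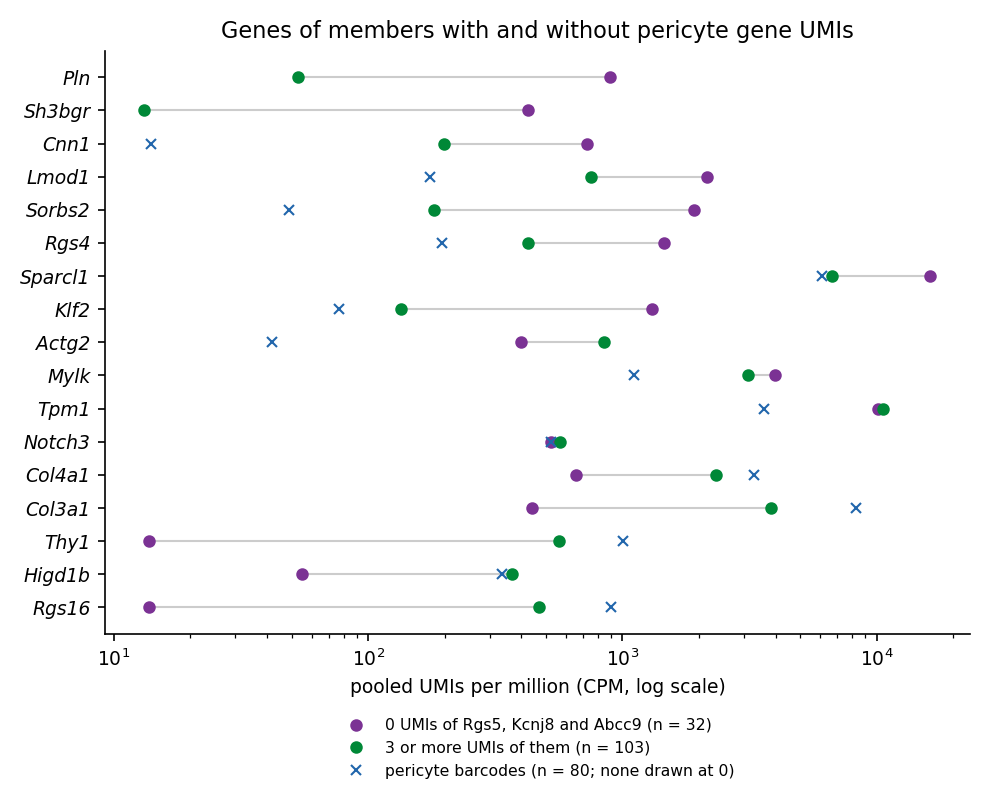
Pooled level, in CPM on a log axis, of 17 genes in the 32 smooth muscle barcodes without UMIs of Rgs5, Kcnj8 and Abcc9, in the 103 with 3 or more, and in the 80 pericyte barcodes (crosses). Pln lies at 892 CPM in the 32 and 52.7 CPM in the 103, and Thy1 at 13.7 and 560 CPM.

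Endothelial markers summed to 94.0 CPM over 8 genes in the smooth muscle pool, with Kdr at 0 (161 CPM in pericyte barcodes), although 5 of the 8 are genes that the rule limits. Schwann cell markers summed to 84.1 CPM, macrophage markers to 156 CPM with Csf1r at 0, and neutrophil markers to 178 CPM with Retnlg and Csf3r at 0. The neutrophil sum was 35 CPM in pericyte barcodes, and S100a8 (79.2 against 21 CPM, 4 smooth muscle barcodes) and S100a9 (96.5 against 14 CPM, 7 barcodes) were higher in smooth muscle. Both were at 0 in the 32 barcodes without pericyte genes. With so few positive barcodes among the 148, and the 32 shallower, this cannot show that the groups differ. The part of S100a8 and S100a9 in the level of Il1b was not tested. Skeletal muscle markers summed to 27.2 CPM and perineurial markers to 4.95 CPM. Mesenchymal markers reached 3 or more UMIs in 52 of 148 smooth muscle and 27 of 80 pericyte barcodes. Of 7 other classes (endothelial, Schwann cell, macrophage, neutrophil, mast, T or NK and B cell), 8 smooth muscle and 5 pericyte barcodes held 3 or more UMIs. Without these, 22 contractile genes and 5 genes of the channel and calcium-handling list were called higher than in pericyte barcodes.

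The same rule was applied to the other tables for description only, since they were prepared differently. In the FACS library of injured nerve 5 of 1914 barcodes with 200 or more genes met it (0.261%, 0.085 to 0.609). They held 85 UMIs of Acta2 (6429 CPM) and 125 of Rgs5 (9454 CPM) in 13222 UMIs, and all 5 held Rgs5. Of the uninjured mesenchymal cells, 2 of 880 met it (0.227%, 0.028 to 0.819), and these held 101 and 127 UMIs of Dcn and 1 UMI of Rgs5 between them. In the authors' table of injured mesenchymal cells it was 2 of 1289 (0.155%, 0.019 to 0.559). The uninjured table holds predicted mesenchymal cells only, so injured and uninjured smooth muscle cannot be compared here, and injury cannot be told apart from that selection.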

How the data were processed

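The values are UMI counts per gene and barcode, deposited by the authors for 3 Drop-seq libraries; the method follows Macosko et al. per the labels' protocols, and the submitters' processing notes name the build mm10. For the aligner and counter, the answer is not given in the sources used here. No doublet caller was run, so doublets remain, except where a limit on other cells' genes removes them. The members and gene lists were chosen with earlier results of these data known. Counts were summed over the barcodes of a pool and scaled to CPM. Ratios carry exact conditional binomial intervals, levels exact Poisson intervals and shares exact Clopper-Pearson intervals, all 95% and for counting error only; a pool at 0 is taken as 3 counts. Named genes were the 12 highest and 12 lowest ratios against pericyte barcodes and the 12 highest against the other pools, without mitochondrial, ribosomal, haemoglobin, predicted and other cell types' marker genes, plus members of the 19 lists past the size rule or at the ends of their list. The genes described within the smooth muscle barcodes, the uncalled list genes given beside them and the olfactory receptors' shares were picked after their values were seen. Alternatives changed the barcode limits, scaling (TMM, DESeq2 size factors), CPM minimum, fold, weighting and depth. Leaving out mesenchymal-marker barcodes or the top barcode, and all alternatives within the smooth muscle barcodes, were chosen after seeing the data. Python 3.11.15, numpy 2.4.6, scipy 1.17.1, pandas 2.3.3, matplotlib 3.10.9, R 4.3.3, edgeR 4.0.16 and DESeq2 1.42.0 were used, and the ratio code was tested on simulated data.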

Additional observations from a re-analysis of the deposited data

How the results depend on the processing

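The number of smooth muscle barcodes was 116 with a minimum of 20 UMIs of Acta2, Tagln and Myl9 and 125 with no endothelial UMI allowed, and 132 to 165 under the other limits tried. The number of genes higher or lower than in pericyte barcodes fell from 748 to 413 after thinning to 1000 UMIs, where 98 of the 312 higher and 118 of the 436 lower genes remained and fewer barcodes were deep enough. It was 1183 when members with pericyte genes were left out. Against all other barcodes the count of 1343 became 2323 with a minimum of 20 CPM, 2788 with no minimum and 2094 at 1.5-fold. Against mesenchymal barcodes the count of 1489 became 2328, 2847 and 2296 under the same settings. Within the smooth muscle barcodes, 787 became 356 after thinning, again with fewer barcodes. Single genes were followed through the settings for only part of the named genes, and not for every called list member. Among the genes followed, Sfrp1 against pericyte barcodes turned to log2 0.18 without the mesenchymal-marker barcodes, and Penk to 1.17 with the mean of CPM per barcode. The other followed ratios that could be given kept their direction. Among list members not followed, some lower genes turned positive without the mesenchymal-marker barcodes. They include Igf2 (log2 0.32), Mfap5 (log2 2.09) and Ogn (log2 0.32), which were then not called. Counted as 1 gene under 1 setting, 901 of the cases followed had the same call and 33 were no longer called. A lower CPM minimum, no minimum and 1.5-fold only loosen the rule and cannot remove a call. The 901 include such cases and are therefore no measure of stability. The cases include genes described within the smooth muscle barcodes. Cases in which no ratio could be given include, without the mesenchymal-marker barcodes, Angptl1, Flrt2 and Ociad2 (1 smooth muscle and 0 pericyte UMIs each), Penk (2 and 0) and Clmp (0 in both) and, after thinning, Ociad2 (0 and 1), Penk and Clmp (0 in both). DESeq2 size factors gave 60.6% of calls against pericyte barcodes as higher and 45.2% against mesenchymal barcodes. No paired analysis was possible because each condition is 1 library. The pericyte pool of 80 barcodes limits the precision: 3 counts in it are 21 CPM, so a gene under that level there could not be told from absent. Animals, dissociation and library are not replicated, and free RNA in the droplets was not removed.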

Other observations

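A few genes varied among the smooth muscle barcodes far more than the rest. After thinning the 132 deep enough barcodes to 1000 UMIs, the ratio of variance to mean over barcodes had a median of 1.16 across 1930 genes, and it is given here as a description. It was 12.7 for the inflammatory cytokine Il1b, which 5 of the barcodes held, with up to 17 UMIs in a barcode. The neutrophil protein gene S100a9 (7.52, 4 barcodes), the chemokine Cxcl2 (7.30, 5 barcodes) and the acute-phase gene Hp (8.71, 3 barcodes) were as restricted. Neutrophil markers summed to 3 or more UMIs in 3 of 148 smooth muscle barcodes, and the part of these barcodes in the levels of Il1b and Cxcl2 was not tested.

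Other variable genes were spread over more barcodes. Mgp, whose product inhibits calcification of the vessel wall, had a ratio of 10.2 and was held by 52 of the 132 barcodes with up to 29 UMIs. Dcn, a mesenchymal marker, came next at 9.84, held by 19 barcodes with up to 19 UMIs. Rgs5 (9.63, 107 barcodes), the metallothionein Mt1 (8.78, 42 barcodes), the fatty acid binding protein gene Fabp4 (6.57, 55 barcodes) and the interferon-inducible GTPase Iigp1 (6.99, 13 barcodes) followed. In the unthinned groups within smooth muscle, Mgp was at 2650 CPM in the 103 barcodes with pericyte genes and 768 CPM in the 32 without, and Mt1 was at 475 and 3787 CPM.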
